A study of Mus musculus with 2 samples.

Results

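Of 24050 GATA4 peaks called in adult mouse liver, 561 had their summit inside an exon of a protein-coding gene and away from any start site of such a gene, which is 2.33% of the list. These exon peaks were chosen by position alone. The summit had to lie in an exon of a protein-coding gene in the basic set of GENCODE mouse release 21, and more than 1 kb from each of the 41219 start sites of protein-coding transcripts on chromosomes 1 to 19 and X. A summit in coding sequence of any transcript was called coding, and the others untranslated. This gave 261 coding and 300 untranslated peaks. Of the untranslated ones, 281 lay in 3′ untranslated regions (3′ UTRs) and 19 in 5′ UTRs. The 561 peaks fell in exons of 519 genes, 2.39% of the 21728 protein-coding genes annotated on those chromosomes.

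The data come from chromatin immunoprecipitation and sequencing (ChIP-seq) with an antibody against GATA4 on whole liver of healthy adult mice, in 1 group of 2 samples without a treatment. The samples are labelled biological replicates 1 and 2, carry the same biosample and donor identifiers, and have no recorded age or sex, and the spread between them could be technical only. The deposited files used here are peak lists with no read counts, so depth is unknown, and the control libraries were not analysed here. Whole liver mixes hepatocytes with endothelial, stellate, immune and bile duct cells, and a peak list cannot tell in which of them a site was bound.

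GATA4 is a zinc-finger transcription factor that binds the sequence WGATAR, which stands for AGATAA or AGATAG or TGATAA or TGATAG. In liver it is known from hepatocytes in development, from stellate cells and above all from sinusoidal endothelial cells, where it drives the liver-specific endothelial programme. Enhancers usually lie in introns or between genes, but a transcription factor can also bind in an exon, where the same bases then serve as regulatory DNA and as codons or as untranslated message.

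The sequences of 8 members show what these sites look like inside exons. Each is 30 bases of the GRCm38.p6 assembly, which is mm10, written on the strand of the gene with the WGATAR match, or its reverse complement, in capitals. Matches on the gene's strand read as WGATAR, and those on the other strand read as TTATCT or TTATCA or CTATCT or CTATCA. The first 6 are coding and the next 2 untranslated. The Tuba4a stretch, centred on the summit, is shown because the strongest exon peak has no WGATAR.
Tuba4a (coding, chr1:75217326-75217355): atgggattcagcctgatgggcagatgccca
Plekha5 (coding, chr6:140570346-140570375): cagccagccaagAGATAGagatgaatgctg
Actn4 (coding, chr7:28895126-28895155): tcagggccctgcTTATCTccacaggataca
Oit3 (coding, chr10:59430934-59430963): gtctgaggagggCTATCAgtgtgaatgtcc
Mphosph9 (coding, chr5:124267054-124267083): ggacaggaagctAGATAAgcagctggagga
Fgg (coding, chr3:83011448-83011477): agaagattcattTGATAAgcatgcagtcca
Arsa (5′ UTR, chr15:89476373-89476402): cccaaccggcgcAGATAAggatcgggagca
Gpr182 (3′ UTR, chr10:127749320-127749349): aacccgggagttTGATAAatcaagggggtg

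In the optimal list exon sequence held GATA4 summits more densely than intergenic sequence, and coding sequence less densely than introns. Over 1 kb from start sites there were 8.59 summits per megabase of coding sequence (95% exact Poisson interval 7.58 to 9.70, 261 summits in 30.4 megabases). Untranslated exon sequence held 9.39 per megabase (8.36 to 10.5, 300 in 31.9 megabases). Introns held 10.4 per megabase (10.2 to 10.6, 9383 summits) and intergenic sequence 5.78 (5.66 to 5.90, 8909 summits). The interval for coding sequence lies below that for introns and above that for intergenic sequence. Among peaks also found in both of the thresholded lists called from 1 replicate alone, the order of exon and intergenic sequence was not seen: exon sequence held 1.09 per megabase (0.847 to 1.38), coding sequence 0.823 (0.532 to 1.21) and untranslated exon sequence 1.35 (0.974 to 1.81), against 1.94 in introns (1.85 to 2.04) and 1.15 between genes (1.10 to 1.21). The intervals cover counting error only, and peaks are not replicates. Every base other than N was counted, repeat sequence included, and the part of repeat content in these densities was not tested.

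**Figure D1:**
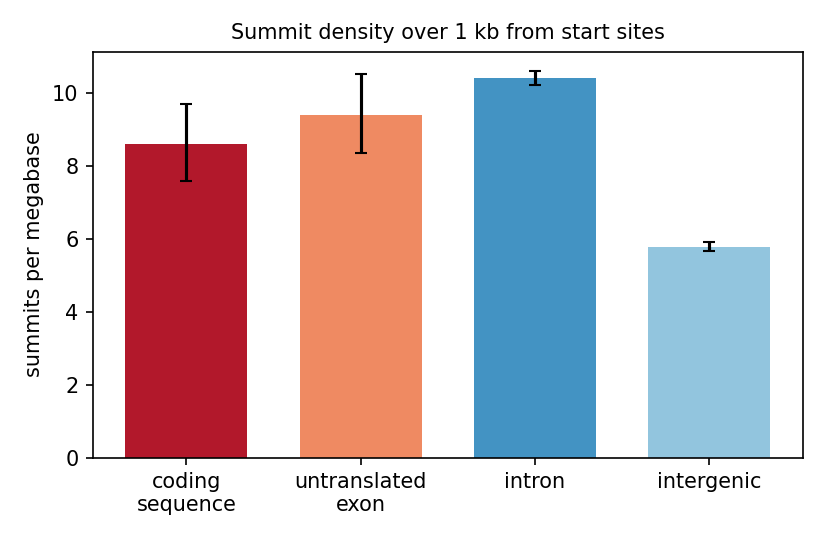
Summits of the optimal list per megabase of coding sequence, untranslated exon, intron and intergenic sequence, all over 1 kb from start sites of protein-coding transcripts; lines are 95% exact Poisson intervals. Coding sequence held 8.59 and untranslated exon sequence 9.39 summits per megabase, against 10.4 in introns and 5.78 between genes.

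Coding summits lay mostly inside genes, in short exons. An internal exon held 194 of the 261, the first exon 16 and the last exon 51. Of the 16 in a first exon, 8 were in single-exon transcripts. The exon had a median length of 210 bp, and in 159 of 261 cases it was shorter than the peak itself. Untranslated summits sat in long exons with a median length of 2651 bp, and 280 of the 281 in 3′ UTRs lay in the last exon. The deposited peak was 360 bp wide for 482 of the 561 members, so the peak reached past the exon for most coding members. It lay wholly inside the exon for 69 of 261 coding and 252 of 300 untranslated members. Of the 561 summits, 5 lay in exons of 2 overlapping genes.

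Each peak carries a signal score from the peak caller, deposited without a unit, and peaks are ranked by it within a list. Exon peaks reached from rank 7 to rank 24005 of 24050, with a median rank of 13059 (distribution-free 95% interval 11795 to 13810). The median rank was 13689 for coding and 11822 for untranslated members. Intronic peaks had a median rank of 11233 and intergenic peaks of 11259, both outside the interval of the exon members. The strongest quintile of the list held 108 of 561 exon members (19.3%, 95% Wilson interval 16.2 to 22.7) and 21.4% of intronic peaks. Exon peaks were thus spread over the whole range of strength, and by median rank were weaker than intronic and intergenic peaks. The median rank of all peaks, 12026, lies inside the interval of the exon members. A shift against the list as a whole was therefore not shown. The intronic share of the strongest quintile also lies inside the interval of the exon share.

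The strongest exon peak was in coding exon 2 of 4 of Tuba4a, which encodes an alpha-tubulin. Its signal score was 301.7 in the optimal list, and peaks at the same place scored 62.9 (rank 44) in the relaxed list of replicate 1 and 239.7 (rank 2) in that of replicate 2. The relaxed lists hold 299785 positions for replicate 1 and 299826 for replicate 2, background included, and scores are not comparable between lists. This summit lay 1954 bp from the nearest start site used in the rule but 74 bp from a start in the full GENCODE set, which also holds partial transcripts. It is the only one of the 12 strongest coding members without a WGATAR within 50 bp of the summit.

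Coding members next in rank were in genes of varied function. The peak in exon 20 of 31 of Plekha5, a pleckstrin-homology protein, ranked 178 in the optimal list, 492 in replicate 1 and 162 in replicate 2, and held 2 WGATAR sites. Cyren, which regulates DNA end joining, had a peak of rank 432, with ranks of 2589 in replicate 1 and 271 in replicate 2, and the summit also lies in an exon of Tmem140. The cytoskeletal crosslinker Actn4 (alpha-actinin 4) had rank 560, with 3224 in replicate 1 and 375 in replicate 2. These 3 peaks stood higher in replicate 2 than in replicate 1.

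Oit3, a marker of liver sinusoidal endothelium, had its peak in coding exon 5 of 9, with rank 701 in the optimal list, 448 in replicate 1 and 882 in replicate 2. Dnah8, an axonemal dynein heavy chain, ranked 1035, with 425 in replicate 1 and 1786 in replicate 2. In contrast to the first group, these 2 peaks stood higher in replicate 1 than in replicate 2.

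Mphosph9, an M-phase phosphoprotein, held 2 WGATAR sites and ranked 772, with 2061 in replicate 1 and 642 in replicate 2. Palld, the actin-binding protein palladin, ranked 1124, with 1629 in replicate 1 and 1156 in replicate 2. Rbbp9, a serine hydrolase, ranked 1273, with 2490 in replicate 1 and 910 in replicate 2. All 3 were in both replicates' own thresholded lists, which hold the peaks that pass an irreproducible discovery rate (IDR) threshold in 1 replicate alone.

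Of the 12 strongest coding members 10 were in both own lists. The peak in Pdzd2, a protein with PDZ domains, ranked 835 but was absent from replicate 2's own list, although the relaxed list of that replicate had it at rank 551. The peak in exon 7 of 7 of Aldh8a1, an aldehyde dehydrogenase of tryptophan breakdown, ranked 939 and was absent from the own list of replicate 1, where its relaxed rank was 11349 against 534 in replicate 2. A start in the full GENCODE set lay within 1 kb of 4 of these 12 summits, those in Tuba4a, Actn4, Oit3 and Dnah8.

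**Figure D2:**
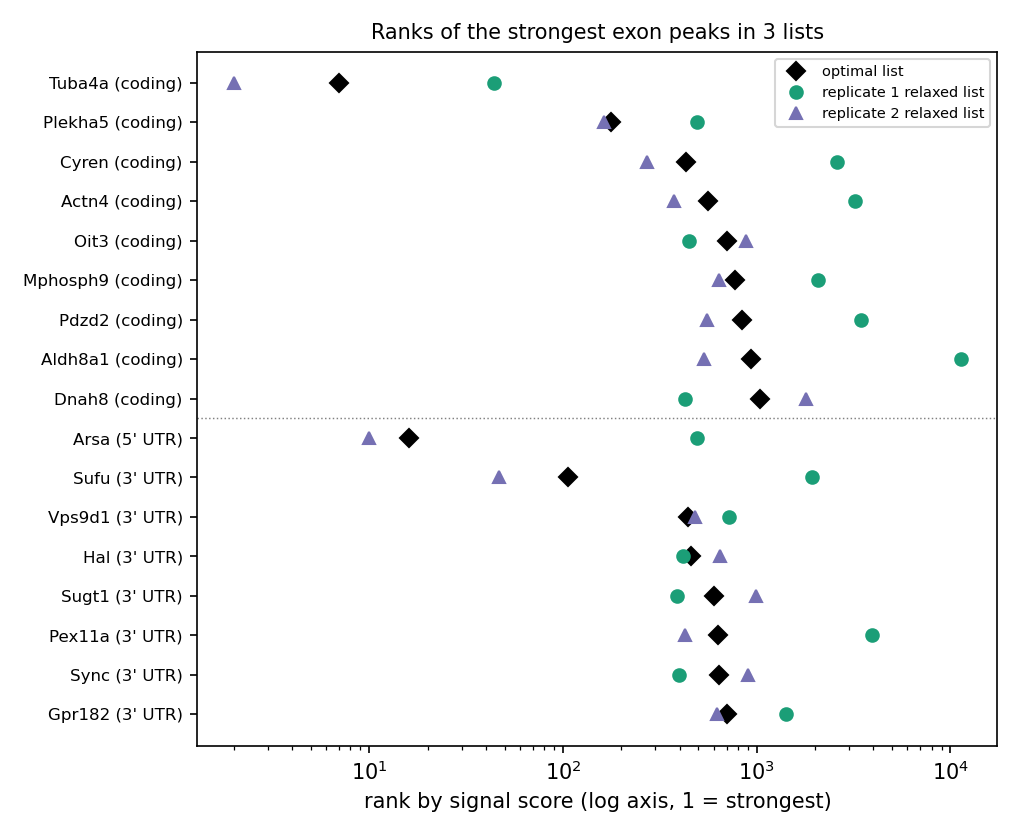
Ranks by signal score, on a log axis, of the 9 strongest coding and 8 strongest untranslated exon peaks in the optimal list (diamonds) and in the relaxed lists of replicate 1 (circles) and replicate 2 (triangles). Tuba4a leads with ranks of 7, 44 and 2 in these lists, and Arsa shows the widest gap between replicates on the log axis, with ranks of 489 and 10.

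All 8 of the strongest untranslated members held WGATAR and were in both replicates' own lists. The first was in the 5′ UTR of Arsa, the lysosomal arylsulfatase A, at rank 16 in the optimal list, 489 in replicate 1 and 10 in replicate 2. It lay 1034 bp from the nearest start site of the rule and 278 bp from one in the full set. The other 7 were in 3′ UTRs. Sufu, a negative regulator of Hedgehog signalling, had a peak with 2 WGATAR sites at rank 106, with 1931 in replicate 1 and 47 in replicate 2.

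Among these 3′ UTR peaks were those of Hal, Pex11a and Gpr182. The peak in Hal, histidine ammonia-lyase, which starts histidine breakdown, ranked 456, with 418 in replicate 1 and 644 in replicate 2. Pex11a, which takes part in peroxisome division, ranked 634, with 3954 in replicate 1 and 428 in replicate 2. Gpr182, a receptor of endothelial cells, ranked 704, with 1424 in replicate 1 and 622 in replicate 2. The remaining ones were in Vps9d1 at rank 440, in Sugt1, an Hsp90 cochaperone, at rank 600, and in the intermediate filament gene Sync at rank 635, whose exon overlaps one of Rbbp4.

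The strongest members without a WGATAR, after Tuba4a, were all in 3′ UTRs. Wdr59, a part of the amino acid sensing complex GATOR2, had a peak at rank 885, with 934 in replicate 1 and 951 in replicate 2. Son, a splicing cofactor, ranked 1285, with 1080 in replicate 1 and 1567 in replicate 2. Prkar1a, a regulatory subunit of protein kinase A, ranked 1467 and was not in the own list of replicate 1. Gpx7, a peroxidase of the endoplasmic reticulum, ranked 1763 and was in both own lists. All 4 of these peaks had a position in both relaxed lists.

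A WGATAR lay within 50 bp of the summit in 312 of 561 exon members (55.6%, 95% Wilson interval 51.5 to 59.7), against 52.8% of all 24050 peaks. Windows of the same length centred 500 bp to either side of the exon summits held it in 15.5%, a difference of 40.1 percentage points (95% Newcombe interval 35.4 to 44.6). Of 185742 windows at the middle of coding exon parts over 1 kb from start sites, 12.5% held it. The motif was thus more frequent at exon summits than in their flanks or at the middle of coding exon parts. A match is a description of the sequence, not a shown binding site.

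Coding members held WGATAR less often than untranslated ones. The share was 128 of 261 (49.0%, 43.0 to 55.1) in coding members and 184 of 300 (61.3%, 55.7 to 66.7) in untranslated members, a difference of -12.3 points (-20.3 to -4.04). The untranslated share was close to the 61.4% of intronic peaks (difference -0.0649 points, -5.77 to 5.36), and the coding share differed from it by -12.4 points (-18.4 to -6.24). By quintile of the list, from the strongest to the weakest, the coding minus untranslated difference was -0.142, -17.6, -7.74, -11.7 and -16.1 points, and each of these 5 intervals included 0. In the strongest quintile 35 of 44 coding and 51 of 64 untranslated members held the motif (-16.3 to 14.6). With untranslated members weighted to the coding members' ranks the difference was -10.5 points (normal 95% interval -18.8 to -2.23). In the own list of replicate 1 it was -3.57 points (-25.0 to 16.3) and in that of replicate 2 -9.94 points (-17.6 to -2.07).

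**Figure D3:**
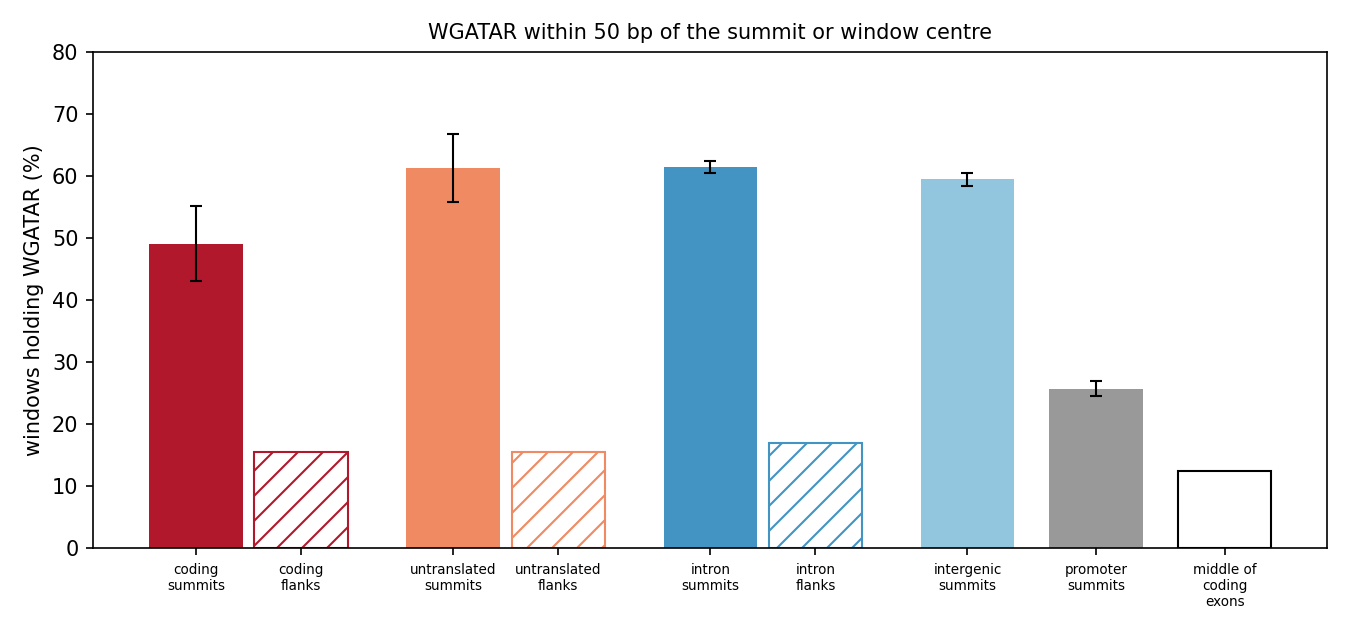
Share of windows of 50 bp to each side that hold WGATAR, at summits of each class, in flanks 500 bp away (hatched) and at the middle of coding exon parts (open); lines are 95% Wilson intervals over summits. Coding summits held it in 49.0% and untranslated ones in 61.3%, against 61.4% of intronic summits and 15.5% of the flanks of either exon class.

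Exon members as a whole held WGATAR less often than intronic peaks, by -5.78 points (-10.0 to -1.61). The share fell from the strongest to the weakest peaks in both classes. In the strongest quintile it was 79.6% of 108 exon members and 78.3% of 2010 intronic peaks, and in the weakest 38.0% of 121 exon members and 43.6% of 1617 intronic peaks. In the 3 quintiles between, the exon share was 66.0%, 51.3% and 47.4% and the intronic share 66.7%, 59.5% and 54.9%. Every one of the 5 intervals of the difference included 0. With intronic peaks weighted to the exon members' ranks the difference was -4.38 points (normal 95% interval -8.60 to -0.150). In replicate 1's own list, which leaves out replicate 2, the sign turned, at 2.44 points (-8.73 to 11.8), while in replicate 2's own list it was -12.0 points (-16.0 to -7.96).

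**Figure D4:**
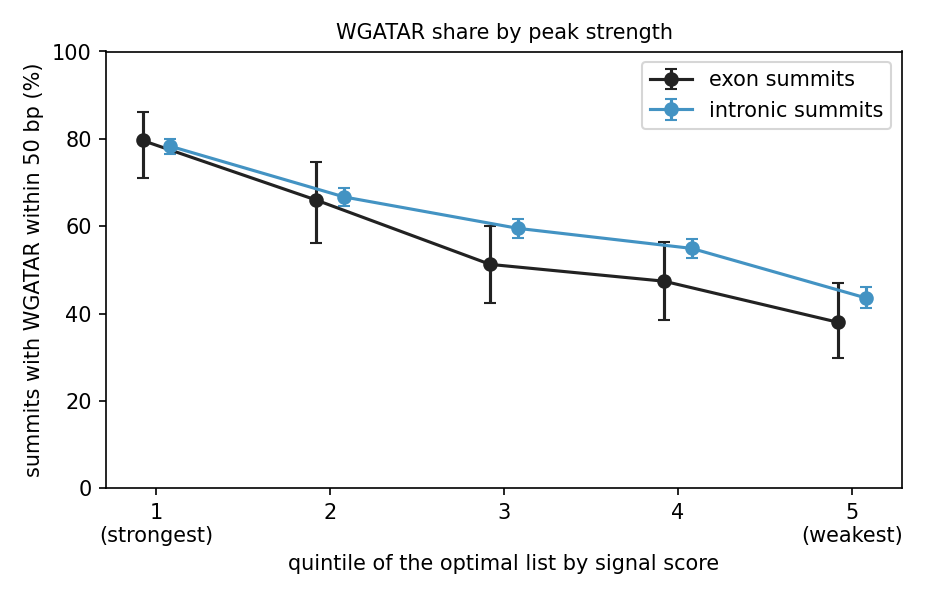
Share of exon summits and of intronic summits with WGATAR within 50 bp, by quintile of the optimal list from the strongest to the weakest signal score; lines are 95% Wilson intervals. Exon summits went through 79.6%, 66.0%, 51.3%, 47.4% and 38.0%, and intronic ones through 78.3%, 66.7%, 59.5%, 54.9% and 43.6%.

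Where a WGATAR was present within 50 bp of the summit it was usually single. Of 561 members 263 held 1 site, 48 held 2 and 1 held 3. Members with 2 or more were 8.73%, against 10.4% of all peaks and 12.6% of intronic peaks. The nearest site was centred at a median of 18.5 bp from the summit over the 312 members with one. The search ended at 50 bp, and whether sites lay closer than by random placement was not tested. Of all 362 sites, AGATAA made up 156, TGATAA 106, AGATAG 55 and TGATAG 45. Of the 128 coding members with a site, 114 had one wholly in coding sequence. The other 14 had no site in the exons of the transcript assigned to the summit. In untranslated members 182 of 184 had a site in the exon.

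The sites in coding sequence also spell amino acids. WGATAR cannot start at the first codon position on the gene's strand, since its last bases would then be the stop codon TAA or TAG, and 0 of 130 member sites did. On the gene's strand 28 sites started at the second and 43 at the third codon position, 21.5% and 33.1% of the 130. Over all 48247 sites in annotated coding sequence these shares were 20.9% and 28.9%. On the opposite strand the site's first base on the gene's strand was at the first codon position for 12 sites (9.23%), at the second for 21 (16.2%) and at the third for 26, against 9.83%, 22.0% and 18.3% of all coding sites. Sites on the gene's strand were 71 of 130 (54.6%, 46.0 to 62.9) and 49.8% of all coding sites, inside that interval.

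Of the other motifs searched, on both strands and within 50 bp, 4 stood above the flanks in coding and untranslated members alike. The core of ETS factors (AGGAAA or AGGAAG or CGGAAA or CGGAAG) was at 50.6% of coding summits and 28.2% of their flanks, a difference of 22.4 points (15.2 to 29.5). For untranslated summits it was at 48.7% and in 24.2% of flanks, a difference of 24.5 points (17.8 to 31.0). ETS factors are the main family of endothelial transcription factors, and many other cells have them too. Intronic summits held it in 47.8% and 25.5% of their flanks. At the middle of coding exon parts it was in 27.4% of windows.

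AGGTCA, the half-site of nuclear receptors, was at 11.9% of coding summits and in 6.51% of their flanks, a difference of 5.36 points (1.19 to 10.2). It was at 14.7% of untranslated summits and in 4.50% of their flanks, a difference of 10.2 points (6.10 to 14.8). At the middle of coding exon parts it was in 6.91%. The E-box CAGCTG was at 11.9% of coding summits and 6.51% of their flanks (difference 5.36 points, 1.19 to 10.2), and at 9.67% of untranslated summits and 4.67% of their flanks. Windows at the middle of coding exon parts held CAGCTG in 9.06%, closer to both summit shares than the flanks were. The GC box GGGCGG was at 4.98% of coding summits and 2.30% of their flanks (difference 2.68 points, 0.0363 to 6.18), and at 6.0% of untranslated summits and 1.83% of their flanks (4.17 points, 1.57 to 7.55). It was in 2.31% of windows at the middle of coding exon parts.

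TTGGC, the half-site of nuclear factor I, was above the flanks in coding members, at 29.5% and 14.9% (difference 14.6 points, 8.39 to 21), with 20.5% at the middle of coding exon parts. In untranslated members it was at 22.7% and 17.8%, and the interval of that difference included 0 (4.83 points, -0.625 to 10.6). The coding share did not differ from the untranslated one beyond counting error (6.84 points, -0.427 to 14.1). Nuclear factor I and forkhead factors act at many liver enhancers. The forkhead motif TRTTKRY (R is A or G, K is G or T, Y is C or T) was no more frequent at exon summits, at 18.4%, than in their flanks, at 21.1%. Intronic summits held it in 24.1%, and exon minus intron was -5.76 points (-8.87 to -2.24).

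Other motifs were rare or close to their flanks. CAGNTG, which contains CAGCTG, was at 24.6% of exon summits and 23.1% of their flanks, and at 22.6% of coding summits against 31.3% of windows at the middle of coding exon parts. Exon summits and their flanks held the CACCC-type box CCNCNCCC in 10.2% and 9.98%, and CCAAT in 12.1% and 12%. The AP-1 site (TGACTCA or TGAGTCA) was at 2.67% and 2.05%. The C/EBP motif TTRCNNYAA was less frequent at exon summits, at 1.60%, than in their flanks, at 3.30% (-1.69 points, -3.13 to -0.0176). The HNF4 motif CAAAGTYCA was at 6 of 561 summits (1.07%) and 0.178% of flanks (0.891 points, 0.146 to 2.14), and the core motif of CTCF at 4 of 561.

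Base composition also differed between the classes. GC content within 50 bp of the summit averaged 54.0% in coding and 50.8% in untranslated members, against 48.5% in intronic peaks. Flanks of exon summits averaged 47.2%, and windows at the middle of coding exon parts 50.2%. A window with at least 60% GC and a CpG ratio of at least 0.6 was found at 38 of 261 coding summits (14.6%, 10.8 to 19.4) and 11 of 300 untranslated ones (3.67%), against 1.33% of intronic summits. The comparison sequence (ATATGC or TTATGC) was at 1.53% of coding summits and 5.36% of their flanks. The part of base composition in the motif shares was not tested.

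Some coding summits lay near starts of transcripts that the basic set leaves out. A start of a protein-coding gene's transcript in the full GENCODE set was within 1 kb of 57 of 261 coding members (21.8%, 17.3 to 27.2) and 21 of 300 untranslated ones (7.0%, 4.62 to 10.5), against 6.96% of intronic peaks. Coding members exceeded untranslated ones by 14.8 points (9.09 to 20.7). Of the 57, 26 held WGATAR (45.6%), against 102 of the other 204 (50%), a difference of -4.39 points (-18.4 to 10.1). Without all members near such starts the coding share was 50% and the untranslated share 62.0% (-12.0 points, -20.7 to -3.06).

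At the 1 kb limit the members just inside were in 3′ UTRs of Ntn3, a netrin, at 1017 bp from the nearest start and rank 12608, and of Arhgap39, a GTPase-activating protein, at 1018 bp and rank 12647. Just outside were summits in 5′ UTRs of Brd2, a bromodomain protein, at 996 bp and rank 14357, and of Acsm5, an acyl-CoA synthetase, at 970 bp and rank 9089.

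Exon peaks had less support in replicate 1 than intronic peaks, and about as much in replicate 2. Replicate 1's own list held 4287 peaks and replicate 2's 26314. Of the exon members 72 overlapped a peak of replicate 1's own list (12.8%, 10.3 to 15.9), against 17.0% of all peaks, and 450 one of replicate 2's (80.2%, 76.7 to 83.3), against 82.5% of all peaks. Both lists held 68 (12.1%, 9.67 to 15.1), against 16.3% of all peaks. Neither list held 107 (19.1%, 16.0 to 22.5), against 16.7% of all peaks. Replicate 2's list alone held 382 (68.1%, 64.1 to 71.8), against 66.2% of all peaks. Both whole-list shares lay inside the interval of the exon members. The difference to intronic peaks in replicate 2 support was -1.91 points (-5.49 to 1.27). In replicate 1 support it was -6.66 points (-9.30 to -3.53). After intronic peaks were weighted to the exon members' ranks it was -4.77 points (normal 95% interval -7.60 to -1.94).

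Support in replicate 1 was mostly a matter of the strongest peaks. In the strongest quintile 53 of 108 exon members (49.1%) were in its own list, against 64.3% of intronic peaks, a difference of -15.2 points (-24.7 to -5.67). In the weaker 3 quintiles no exon share passed 6.72%. Coding members were in that list in 10.7% and untranslated ones in 14.7%, which differed by -3.94 points (-9.42 to 1.67). The authors' conservative list, a shorter one of 9234 peaks, held 186 exon members (33.2%), against 38.2% of all peaks. Here coding members stood apart, with 66 of 261 (25.3%, 20.4 to 30.9), from untranslated ones with 120 of 300 (40.0%, 34.6 to 45.6), a difference of -14.7 points (-22.2 to -6.94).

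**Figure D5:**
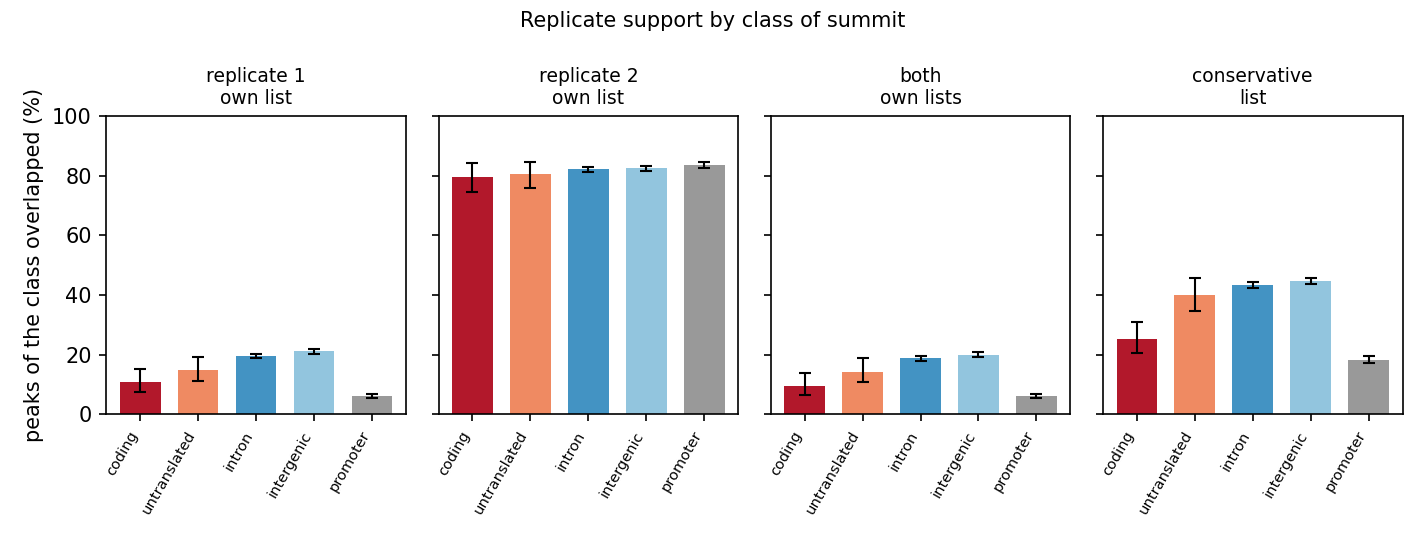
Share of coding, untranslated, intronic, intergenic and promoter peaks of the optimal list that overlap a peak of replicate 1's own list, of replicate 2's own list, of both, and of the conservative list; lines are 95% Wilson intervals. Coding and untranslated peaks were in replicate 1's list in 10.7% and 14.7%, against 19.5% of intronic peaks, and in the conservative list in 25.3% and 40.0%, against 43.3%.

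Exon members also had less support in the relaxed list of replicate 1 than intronic peaks. A relaxed replicate 1 position overlapped 397 of 561 exon members (70.8%, 66.9 to 74.4), against 78.4% of intronic peaks, a difference of -7.63 points (-11.6 to -3.92). The share was 172 of 261 in coding and 225 of 300 in untranslated members. Over all peaks it was 17343 of 24050, which lies inside the interval of the exon members, with 7130 of 8909 intergenic and 2460 of 5197 promoter peaks. The difference to intronic peaks was not matched on rank here. Every exon member overlapped a relaxed replicate 2 position, as did 9372 of 9383 intronic peaks.

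Members found in both own lists were richer in the motif. A WGATAR was at 55 of 68 such exon members (80.9%) and 257 of the other 493 (52.1%), a difference of 28.8 points (17.0 to 37.5). Among coding members the shares were 18 of 25 (72.0%) and 110 of 236 (46.6%), a difference of 25.4 points (4.80 to 40.5). Among untranslated members they were 37 of 43 (86.0%) and 147 of 257 (57.2%), a difference of 28.8 points (14.3 to 38.4). Intronic peaks showed 75.8% and 58.1%. These differences were not matched on rank. In the strongest quintile 79.6% of exon members held WGATAR and 49.1% were in replicate 1's own list. In the next quintile the shares were 66.0% and 8.25%. The part of peak strength in the differences was not tested.

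Genes of liver sinusoidal endothelium, the fenestrated vessel lining of the liver, were the listed group with the most exon members. Of 30 genes on that list 10 had one (33.3%), against 2.39% of all protein-coding genes. Of the same 30 genes 28 had a summit of any class in the gene or within 10 kb, with a median of 7 summits, and 47.2% of all protein-coding genes had one, with a median of 2.00. Among genes with any such summit the share with an exon member was 35.7% on the list and 5.06% over all genes. These lists were chosen with results of these data known, so the count is a description.

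Besides Oit3 and Gpr182, the list's members by rank were in Clec4g, Kdr, Plvap and Bmp2. Clec4g, a C-type lectin of sinusoidal endothelium, had a coding peak with 1 WGATAR at rank 4604, with 3692 in replicate 1 and 5773 in replicate 2, and it was in both own lists. Kdr, the receptor VEGFR2, had a coding peak with 1 WGATAR at rank 7280, with 11894 in replicate 1 and 7589 in replicate 2. Its other 2 peaks overlap each other in the 3′ UTR, without a WGATAR, at ranks 11829 and 24005. The coding peak of Clec4g was the only one of these 4 in replicate 1's own list.

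Plvap, which forms the diaphragms of endothelial pores, had a 3′ UTR peak at rank 10110, with 241508 in replicate 1 and 9144 in replicate 2. Its coding peak had rank 21436 and no position in the relaxed list of replicate 1. Each held 1 WGATAR. Bmp2, the endothelial ligand that drives hepcidin in hepatocytes, had a coding peak without WGATAR at rank 15406 and likewise no relaxed position in replicate 1. None of these 3 peaks was in replicate 1's own list, and all were in that of replicate 2. The other 4 genes with an exon member on this list ranked lower than Bmp2.

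On the list of 30 hepatocyte genes 2 had an exon member (6.67%, against 2.39% of all protein-coding genes), and neither peak was in replicate 1's own list. Fgg, the fibrinogen gamma chain, had a coding peak with 1 WGATAR in exon 7 of 10 at rank 13689, with 79407 in replicate 1 and 15688 in replicate 2. Cyp2e1, a cytochrome of ethanol metabolism, had a coding peak without WGATAR at rank 15795, with 79918 in replicate 1 and 20170 in replicate 2. On this list 27 of 30 genes had a summit of any class within 10 kb, and 7.41% of these had an exon member, against 5.06% over all genes with a summit. The list of 24 coagulation and complement genes, where 15 genes had a summit, had 0 exon members, and at the 2.39% of all genes a list of this size holds few or none.

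Of 24 lipid and bile acid genes 3 had an exon member (12.5%, against 2.39% of all genes), among them Angptl4 and Cyp8b1. Angptl4, an inhibitor of lipoprotein lipase, had a 3′ UTR peak without WGATAR at rank 10402. Cyp8b1, the sterol hydroxylase that sets the balance of bile acids, had a coding peak with 2 WGATAR sites in its single exon at rank 14261, with 91130 in replicate 1 and 14619 in replicate 2.

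Among 27 liver transcription factor genes 1 had an exon member (3.70%, near the 2.39% of all genes). It was in Nfib, a member of the nuclear factor I family, with a coding peak without WGATAR at rank 21623. The GATA and FOG family, GATA factors and their cofactors, had 1 member of 8 (12.5%), in the 3′ UTR of Gata2, the endothelial and blood GATA factor. That peak had no WGATAR and ranked 7390, with 268748 in replicate 1 and 5913 in replicate 2. Neither peak was in replicate 1's own list.

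Genes of endothelial surface and signalling had 3 of 28 (10.7%, against 2.39% of all genes), and 26 of the 28 had a summit of any class within 10 kb. Ets1, an endothelial ETS factor, had a coding peak with 2 WGATAR sites in exon 7 of 8 at rank 2718, with 10999 in replicate 1 and 2022 in replicate 2. Notch4, the endothelial Notch receptor, had 2 overlapping coding peaks without WGATAR at ranks 19045 and 23619, and Esam, an endothelial adhesion molecule, a 3′ UTR peak at rank 21902. Of 20 extracellular matrix genes 1 had a member (5.0%), Nid2, a basement membrane nidogen, with 1 WGATAR in a coding exon at rank 20407.

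Cytoskeleton and junction genes had 4 of 25 (16%, against 2.39% of all genes), which is 22.2% of those with any summit within 10 kb, against 5.06% over all genes. Besides Tuba4a these were Zyx, the focal adhesion protein zyxin, with a 3′ UTR peak at rank 6507, Macf1, which links microtubules and actin, with coding peaks at ranks 6684 and 10600, and Myh9, the non-muscle myosin heavy chain, at rank 22173. Myh9 was in neither replicate's own list. The lists for Kupffer cells and macrophages (20 genes), stellate cells (20), cholangiocytes (14), lymphocytes (15) and erythroid cells and megakaryocytes (16) had 0 exon members. At the 2.39% of all genes lists of this size hold few or none, so these counts do not tell the lists from other genes. A summit of any class was within 10 kb of 6, 9, 6, 6 and 6 of these genes, in that order.

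Most genes had a single exon member, and several counts of 3 came from split peaks. Of the 519 genes 38 had 2 or more members and 7 had 3 or more. Itsn1, an endocytic scaffold, had 4 separate peaks, coding ones at ranks 3399 and 13146 and 3′ UTR ones at ranks 9025 and 21215. Tmbim1, a membrane protein of the BAX inhibitor family, had 3, and so had Slc8a1, a sodium-calcium exchanger, whose peaks lay in 1 exon of 15963 bp. In Limd1, Rnf144b, Fzd4 and Kdr, 2 of the 3 peaks overlap each other.

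Across all members 28 peaks formed 14 overlapping pairs with summits 199 to 221 bp apart, median 201.5 bp. Both peaks of a pair overlapped the same strongest relaxed position of replicate 2 in 14 of 14 pairs. Counting each pair once leaves Itsn1, Tmbim1 and Slc8a1 as the genes with at least 3 separate exon peaks.

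In 239 of the 519 genes an exon member of the gene was the strongest summit in the gene or within 10 kb. In 100 of these it was the only summit, and so the strongest by construction. No comparison with peaks of other classes was made. The median was 3.00 summits per gene in that window, the exon member included.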

How the data were processed

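The files are peak lists on mm10 made by the authors from GATA4 ChIP-seq of 2 samples. Per the file headers and deposited README tables, an earlier run gave the optimal, conservative and relaxed lists, and a later run the replicates' own thresholded lists. The deposited signal score has no unit; the deposited IDR score reaches at most 1000, and the optimal list starts at 537. Aligner and peak caller: not given in the sources used here.

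From these, 24050 of 24083 lines lay on chromosomes 1 to 19 and X. Summits were placed in GENCODE release 21, and sequence was read from GRCm38.p6 (RefSeq). A motif was searched within 50 bp of the summit. Flanks were centred 500 bp away. Lists overlapped by at least 1 base. Shares have 95% Wilson intervals, differences 95% Newcombe intervals and densities exact Poisson intervals, all covering counting error over peaks and not the spread between replicates. No p-value was computed. Code ran in Python 3.11.15 with numpy 2.4.6 and scipy 1.17.1 and was tested on simulated data.

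Members and gene lists were chosen with earlier results of these data known. Named are the 12 strongest coding, 8 strongest untranslated and 5 strongest members without WGATAR, up to 6 genes per list, genes with at least 3 members, and those nearest the 1 kb limit; a few of these are not reported here. C5 was not found in the annotation. Alternatives were other lists, motif, window, flank, start sites, overlap and IDR, and, chosen after seeing the data, full GENCODE starts and matching on rank.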

Additional observations from a re-analysis of the deposited data

How the results depend on the processing

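Replacing the optimal list by the conservative one left 185 exon members. Their share in coding sequence was 36.2%, and 73.0% held WGATAR. On that list the exon minus intron difference in WGATAR was 2.07 points, with the sign turned, and the coding minus untranslated difference -6.77 points (-20.5 to 6.23). Leaving out 1 replicate, by its partner's own list, gave 77 to 620 members, a coding share of 36.4% to 51.0%, a WGATAR share of 48.2% to 70.1%, an exon minus intron difference of -12.0 to 2.44 points and a coding minus untranslated difference of -9.94 to -3.57 points. The own lists also come from a later run than the optimal list. The later run's list from both replicates gave 544 members, 55.1% of them with WGATAR. On it the exon minus intron difference was -6.91 points (-11.2 to -2.66) and the coding minus untranslated difference -12.9 points (-21.0 to -4.55). With start sites out to 2.5 kb left out the exon minus intron difference was -4.00 points (-8.52 to 0.398). In the strongest quintile it was 1.32 points (-7.41 to 8.10), again with the sign turned, and the coding minus untranslated difference was -0.142 points. A window of 100 bp gave a WGATAR share of 65.2% and AGATAA alone 25.8%. Start sites of the full GENCODE set lowered the coding share to 42.2%. Among members with an IDR score of at least 830, an IDR of 0.01, 18.6% were in both own lists. Beyond the construction of each alternative, the cause was not tested. Of 50 recomputed values, 31 kept their direction and side of 0 or stayed near the reported value, and 19 did not. No paired analysis was possible because the series has 1 group. Depth is unknown, and the 2 samples share a donor identifier, so nothing here measures variation between animals.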
